A study of Homo sapiens with 4 samples.

Results

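RRM1, RRM2, RRM2B, SLC29A1, DCK, CDA, DCTD, SAMHD1, TYMS and TK1 carry gemcitabine into the cell, activate or inactivate it, or make or break down the deoxynucleotides it competes with, and were described across 2 human pancreatic cancer cell lines. They were taken by gene symbol, and all 10 were listed among the 26255 symbols of the data. RNA was sequenced from MIA PaCa-2 and PSN-1, both labelled as epithelial lines of pancreatic tumour origin, after transfection with a mimic of the microRNA miR-4800-3p (labelled miR-4800-3p OE) or with a negative control (scramble) oligonucleotide. Each of the 4 combinations had 1 library, so no value has a replicate within its line. The sources used here do not give the dose of the oligonucleotides or the time of harvest. Cells of all 4 libraries were transfected. The mimic itself was not measured, since MIR4800 was listed at 0 FPKM in all 4 libraries of polyadenylated RNA. In such bulk RNA, fewer cells in a cell cycle phase and less RNA per cell cannot be told apart.

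Gemcitabine is a deoxycytidine analogue used against pancreatic cancer. It enters cells through nucleoside transporters, chiefly the product of SLC29A1, and is phosphorylated first by deoxycytidine kinase (DCK). Its diphosphate inhibits ribonucleotide reductase, and its triphosphate is built into DNA. Ribonucleotide reductase pairs the large subunit RRM1 with the small subunit RRM2 or its p53-inducible relative RRM2B. Cytidine deaminase (CDA) and dCMP deaminase (DCTD) inactivate the drug or its monophosphate, and SAMHD1 hydrolyses deoxynucleoside triphosphates. TYMS makes dTMP from dUMP, and TK1 makes it from salvaged thymidine.

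Of the 10 genes, RRM1 alone had a match to the miR-4800-3p seed in its longest annotated 3' UTR, so both sequences are shown first. The mature microRNA (RefSeq, GRCh38.p14, chromosome 4, 2250091 to 2250109, minus strand) is printed with its seed, bases 2 to 8, in capitals. The RRM1 stretch lies at chr11:4138597-4138626 on the plus strand (GRCh38, whereas the expression values were made on hg19), in transcript ENST00000300738.9, and its capitals mark the 7-base match.
miR-4800-3p: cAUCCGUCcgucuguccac
RRM1 3' UTR: agaaaaaaaaaACGGATAtattgagaatca
The match, ACGGATA, starts at base 225 of a 3' UTR of 493 bases and pairs with bases 2 to 7 of the microRNA, followed by an A. It is neither the 8-base site GACGGATA nor the 7-base site GACGGAT. The same count, 1 of 10, was found when any annotated 3' UTR was searched, and 0 of 10 genes had a site in the coding sequence. Among 9803 genes measured in both lines with a 3' UTR record, 239 (2.44%) had a site in the longest 3' UTR. In any annotated 3' UTR 268 of them had a site, and in the coding sequence 469. A match is a description of the letters, and its use in these cells was not measured.

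RRM1 was lower with the mimic in both lines. In MIA PaCa-2 it stood at 18.1 FPKM under the mimic against 38.8 under the scramble, and in PSN-1 at 22.7 against 35.0. Both mimic libraries lay below both scramble libraries. The share of all genes in that order is not given here, so nothing is read from it. The mimic level was 53.2% lower in MIA PaCa-2 and 35.1% lower in PSN-1. FPKM, fragments per kilobase of transcript scaled to library depth, allow levels to be compared between genes. Every change below is a log2 ratio of mimic to scramble after adding 1 to each FPKM, which makes the change of low genes look smaller than it was. On this scale RRM1 was at -1.05 in MIA PaCa-2, rank 82 from the lowest of 11484 genes averaging 1 FPKM or more there, and PSN-1 gave -0.60, rank 447 of 12233. By the estimated depth, 742 to 1417 fragments stood behind each RRM1 value. The 95% interval from fragment counting alone, for the log2 ratio without pseudocount, ran from -1.22 to -0.97 (MIA PaCa-2) and from -0.74 to -0.51 (PSN-1). Such intervals leave out all variation between cultures.

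RRM2, the S-phase small subunit, had 20.4 FPKM under the mimic against 31.5 under the scramble in MIA PaCa-2, a log2 change of -0.60. In PSN-1 it had 12.3 against 16.4, a log2 change of -0.39. RRM2 was thus lower with the mimic within each line, while both MIA PaCa-2 libraries lay above both PSN-1 libraries. RRM2B, the small subunit used outside S phase and in DNA repair, had 8.60 FPKM under the mimic against 9.06 under the scramble in MIA PaCa-2, while PSN-1 had 17.9 against 15.2. Its log2 changes were -0.07 and 0.22. The counting interval of the first ran from -0.25 to 0.09 and that of the second from 0.11 to 0.36, so the first included 0.

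The makeup of the small subunit messages therefore differed among the libraries. RRM2B made up 22.3% of the summed RRM2 and RRM2B FPKM with the scramble and 29.6% with the mimic in MIA PaCa-2. The same share was 48.2% with the scramble and 59.3% with the mimic in PSN-1. RRM1 stood at 0.955 times the summed small subunits under the scramble and 0.625 times under the mimic in MIA PaCa-2, and PSN-1 gave 1.11 and 0.752 times. RRM2 exceeded RRM2B in 3 libraries, and the PSN-1 mimic library had the reverse order. These are ratios of RNA levels in single libraries and say nothing of protein.

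**Figure D1:**
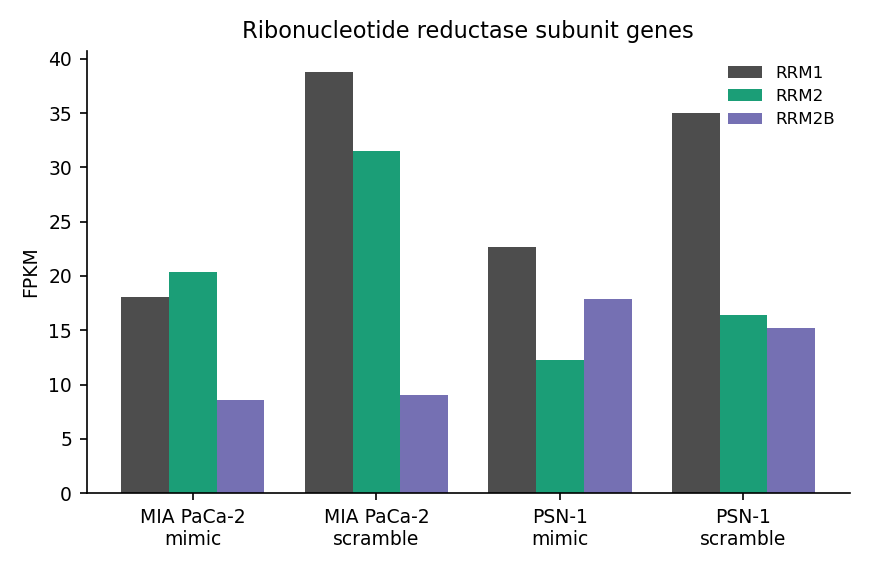
FPKM (linear axis from 0) of the ribonucleotide reductase genes RRM1, RRM2 and RRM2B in the 4 libraries, 1 bar per gene and library, with no error bars because each group has 1 library. RRM1 is lower in each mimic library (18.1 and 22.7) than in each scramble library (38.8 and 35.0), and RRM2B is higher in both PSN-1 libraries than in both MIA PaCa-2 libraries.

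SLC29A1, the equilibrative nucleoside transporter through which most gemcitabine enters, had 30 FPKM under the mimic against 42.6 under the scramble in MIA PaCa-2 (log2 change -0.49). In PSN-1 it had 38.3 against 46.2 (-0.26). Both mimic libraries lay below both scramble libraries, as for RRM1, and nothing is read from this order either. DCK, whose product adds the first phosphate to gemcitabine, had 6.64 FPKM under the mimic against 6.77 under the scramble in MIA PaCa-2, while PSN-1 had 9.62 against 8.88. Its log2 changes were -0.03 and 0.10, and both counting intervals included 0 (-0.29 to 0.24 and -0.11 to 0.34). A change of DCK was thus not detectable at this depth in either line. DCK shares its locus with MOB1B on the same strand in GENCODE, at 8.59 to 12.5 FPKM, so reads of the overlap can have been split between them.

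CDA, which deaminates gemcitabine to an inactive product, was almost absent from MIA PaCa-2. It was listed at 0.371 FPKM with the mimic, about 4.03 fragments, and at 0 with the scramble, which allows up to 0.309 FPKM (3 fragments of counting error). No change was computed there, because the mean was under 1 FPKM. In PSN-1 CDA had 12.3 FPKM under the mimic against 8.66 under the scramble, a log2 change of 0.46. This was the highest change among the 10 genes in PSN-1, rank 668 from the highest of 12233. It rested on about 150 and 83.6 fragments, and its counting interval ran from 0.12 to 0.90.

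DCTD, which deaminates dCMP and gemcitabine monophosphate, had 30.4 FPKM under the mimic against 22.7 under the scramble in MIA PaCa-2. Its log2 change of 0.41 was the only one above 0 among the 9 genes measured in that line (counting interval 0.26 to 0.59). In PSN-1 DCTD was at 32.0 and 32.1 FPKM, a log2 change of -0.01. The MIA PaCa-2 scramble library was thus the low one, and the other 3 libraries lay between 30.4 and 32.1. SAMHD1, the triphosphate hydrolase, had 4.54 FPKM under the mimic against 6.32 under the scramble in MIA PaCa-2 (-0.40), while PSN-1 had 14.1 against 16.8 (-0.24). Both PSN-1 libraries lay above both MIA PaCa-2 libraries.

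TYMS, the thymidylate synthase gene, had 34.2 FPKM under the mimic against 46.0 under the scramble in MIA PaCa-2 (log2 change -0.42). It had 12.5 against 15.4 in PSN-1 (-0.28), so the mimic library was the lower one in each line. TYMS overlaps ENOSF1 on the opposite strand. ENOSF1 was at 11.1 FPKM in both MIA PaCa-2 libraries and at 6.86 (mimic) and 7.95 (scramble) in PSN-1. As the strand setting of the authors' counting is not given, reads of the overlap cannot be assigned with certainty. TK1, the cytosolic thymidine kinase gene, had 60.5 FPKM under the mimic against 70.6 under the scramble in MIA PaCa-2 (-0.22), while PSN-1 had 36.0 against 40.0 (-0.15). TK1 was the highest of the 10 genes in both MIA PaCa-2 libraries.

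**Figure D2:**
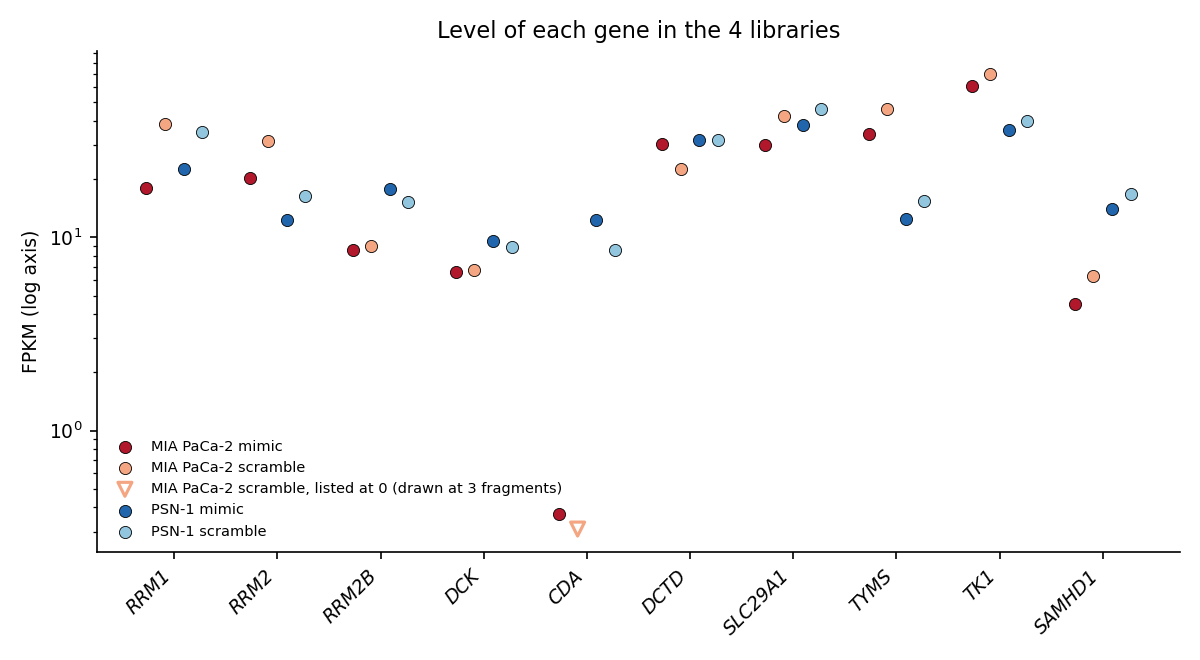
FPKM of the 10 genes in the 4 libraries on a log axis, 1 point per library, with CDA of the MIA PaCa-2 scramble library, listed at 0, drawn as an open triangle at the level of 3 fragments. CDA is at most 0.371 FPKM in MIA PaCa-2, against 8.66 to 12.3 in PSN-1, and TYMS, TK1 and RRM2 are higher in MIA PaCa-2.

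Counted over the genes, 8 of 9 measured were lower with the mimic in MIA PaCa-2, where 47.8% of all measured genes were. In PSN-1 7 of 10 were lower, beside 52.4% of all. The median of the 9 was -0.40 beside 0.014 for all genes in MIA PaCa-2, and the median of the 10 was -0.19 beside -0.016 in PSN-1. Past 1.5-fold (0.58 on the log2 scale), RRM1 and RRM2 were lower and none of the 9 was higher in MIA PaCa-2, where 4.06% of 11484 genes were lower and 5.43% higher past that fold. In PSN-1 RRM1 alone was lower and none of the 10 higher past 1.5-fold, where 3.87% of 12233 genes were lower and 3.17% higher. RRM2 in MIA PaCa-2 and RRM1 in PSN-1 lay just past the threshold, both at -0.60, and the nearest short of it were SLC29A1 at -0.49 in MIA PaCa-2 and CDA at 0.46 in PSN-1. Lower in both lines were 6 of 9 genes, RRM1, RRM2, SLC29A1, TYMS, TK1 and SAMHD1, beside 27.6% of 10678 genes measured in both. RRM1 was lower past 1.5-fold in both, beside 0.609% of genes. RRM1 was known to be lower in both lines when the genes were chosen. It is part of each lower count and each median of the genes given here, so nothing is read from these beside the values of all genes. For each of the 6 genes the change in MIA PaCa-2 was further from 0 than that in PSN-1, a difference that could not be tested with 1 library per group. The share of all genes with that order is not given here. Changes of all measured genes were spread slightly wider in MIA PaCa-2 (SD 0.47) than in PSN-1 (SD 0.44).

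**Figure D3:**
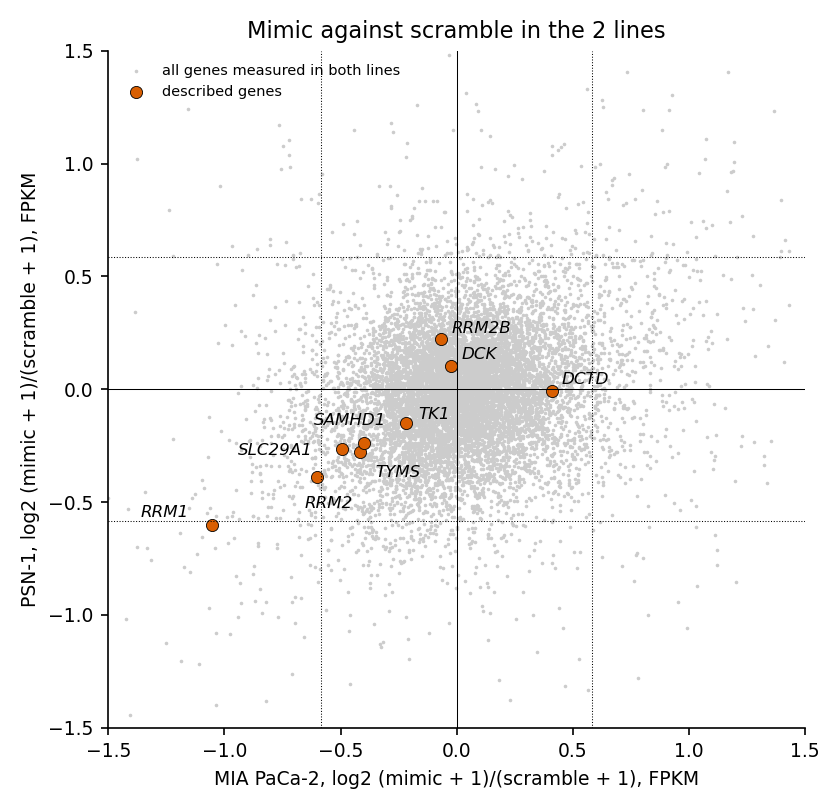
Log2 change with the mimic in MIA PaCa-2 (horizontal axis) and PSN-1 (vertical axis), for 9 of the 10 genes (orange) and all 10678 genes measured in both lines (grey, with 68 beyond the axes not drawn), with dotted lines at 1.5-fold. Among the 9 described genes RRM1 (-1.05 and -0.60) lies furthest towards the lower left, followed by RRM2 (-0.60 and -0.39), and DCK, RRM2B and DCTD lie near an axis.

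To ask what the lines had in common, limma was run on 10678 genes with the line as a block. The error then comes from the disagreement between the lines, which limma pools over genes of similar level. An SE is therefore not the disagreement of that gene alone. RRM1 had a shared log2 change of -0.83 (SE 0.16), given as a description with no test, because its lower level in both lines was part of how the genes were chosen. Of the other 8 fitted genes limma called 0 at an adjusted p under 0.05, where it called 0.00937% of all genes lower and 0.0562% higher. At an unadjusted p under 0.05 stood 3 of the 8 genes, beside 9.93% of all genes. RRM2 had -0.50 (SE 0.14, adjusted p = 0.371 in limma), SLC29A1 -0.38 (SE 0.13) and TYMS -0.35 (SE 0.13). SAMHD1 was at -0.32, TK1 at -0.18, DCTD at 0.20, RRM2B at 0.08 and DCK at 0.04. The fit has 1 residual degree of freedom per gene before that pooling, and a missed threshold does not show that levels were equal.

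The lines themselves differed in the level of several of the 10 genes. Each line has 2 libraries, with the mimic and the scramble, and limma was fitted to all 12423 genes of at least 1 FPKM on average with the oligonucleotide as a covariate. CDA, SAMHD1 and RRM2B were higher in PSN-1, and TYMS, RRM2 and TK1 were lower. CDA reached the average of 1 FPKM only through PSN-1, so its call is not read as a test. Over all genes, limma called 29.2% higher and 27.3% lower in PSN-1. The 3 of 10 in each direction, with CDA counted among the higher, is close to the share among all genes. Nothing is read from that count. Libraries of the 2 lines did not overlap for 8 of 10 genes, RRM1 and SLC29A1 being the exceptions, beside 79.0% of all genes fitted.

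CDA showed the widest gap, with a limma difference of 3.28 on the log2(FPKM + 1) scale (PSN-1 minus MIA PaCa-2, SE 0.18). It is given as a description with no test, because CDA, at 0.186 FPKM on average in MIA PaCa-2, entered the fit only through PSN-1. With a pseudocount of 0.1 in place of 1 the difference was 5.59, so its size rests on the pseudocount. Because MIA PaCa-2 was at or near 0, the ratio was taken against the counts. With the scramble, PSN-1 was at least 28.0-fold higher than the level that 3 fragments stand for in MIA PaCa-2. With the mimic the ratio was 33.2 (95% counting interval 12.3 to 89.4), on about 4.03 fragments in MIA PaCa-2. SAMHD1 averaged 15.4 FPKM in PSN-1 and 5.43 in MIA PaCa-2, 2.84 times as much (limma difference 1.36, SE 0.15, adjusted p = 0.00160). RRM2B averaged 16.6 and 8.83 FPKM, 1.88 times as much (0.84, SE 0.15, adjusted p = 0.00810 in limma).

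TYMS averaged 40.1 FPKM in MIA PaCa-2 against 14.0 in PSN-1, 2.88 times as much (limma difference -1.45, SE 0.13, adjusted p = 8.74e-04). RRM2 averaged 26.0 and 14.3 FPKM (-0.80, SE 0.14, adjusted p = 0.00682 in limma), and without the oligonucleotide term its adjusted p in limma was 0.0506. TK1 averaged 65.6 and 38.0 FPKM (-0.77, SE 0.11, adjusted p = 0.00384 in limma). DCK averaged 9.25 FPKM in PSN-1 and 6.70 in MIA PaCa-2 and did not pass the threshold (0.41, SE 0.15, adjusted p = 0.0696 in limma). RRM1, at 28.9 and 28.5 FPKM, and SLC29A1, at 42.2 and 36.3, had limma differences of 0.08 (SE 0.16) and 0.23 (SE 0.13). For RRM1 the scramble libraries alone gave -0.14 and the mimic libraries alone 0.31. DCTD was at 0.28 (SE 0.15), with 0.48 from the scramble libraries alone and 0.07 from the mimic libraries alone.

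**Figure D4:**
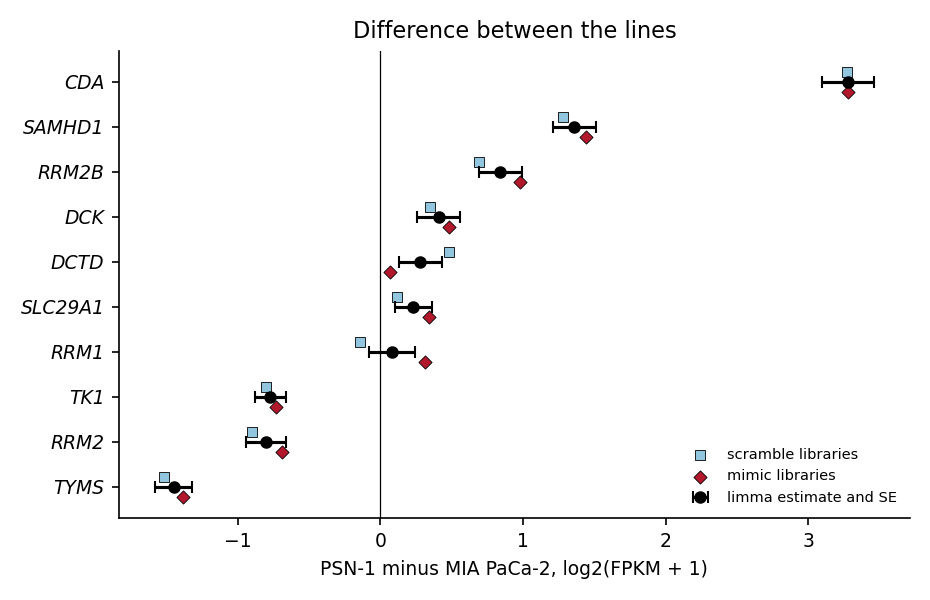
PSN-1 minus MIA PaCa-2 on the log2(FPKM + 1) scale for the 10 genes: limma estimate with its SE (black), and the difference of the scramble libraries (squares) and of the mimic libraries (diamonds). CDA (3.28), SAMHD1 (1.36) and RRM2B (0.84) lie to the right, TYMS (-1.45), RRM2 (-0.80) and TK1 (-0.77) to the left, and RRM1 changes side between the scramble and the mimic libraries.

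Ordered by mean level, the 10 genes in MIA PaCa-2 were TK1 (65.6 FPKM), TYMS, SLC29A1, RRM1, DCTD, RRM2 (26.0), RRM2B, DCK, SAMHD1 and CDA. The neighbours from TYMS to RRM2 overlapped in their 2 libraries, so their order is not resolved, while TK1 lay above and RRM2B (8.83), DCK (6.70) and SAMHD1 (5.43) below, without overlap. In PSN-1 the order was SLC29A1 (42.2), TK1 (38.0), DCTD (32.0), RRM1 (28.9), RRM2B (16.6), SAMHD1, RRM2, TYMS (14.0), CDA (10.5) and DCK (9.25). SLC29A1 overlapped TK1, and DCTD overlapped RRM1. The genes from RRM2B to TYMS overlapped as neighbours, as did CDA and DCK. The ratio of DCK to CDA differed between the lines: DCK was at 0.780 times the CDA level in the PSN-1 mimic library and 1.02 times in the scramble library, and at 17.9 times in the MIA PaCa-2 mimic library, on few CDA fragments. The ratio of DCTD to DCK was 4.59 (mimic) and 3.35 (scramble) in MIA PaCa-2, against 3.32 and 3.62 in PSN-1, so the lines overlapped there.

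Since several of these genes are known to be transcribed in S phase, their promoter windows were searched for motifs known from cell cycle genes. RefSeq (GRCh38.p14) gave windows from 250 bases before to 50 after the start for all of the 10 genes except RRM2B, and windows of the same length for 35116 starts in all. Both strands were searched for the E2F-type 8-mers TTTCCCGC, TTTCGCGC, TTTGCCGC and TTTGGCGC (3.31% of all windows), for the E2F core TTCCCGCC, which shares 7 bases with the first of them (3.16%), and for CCAAT, the NF-Y box (34.6%). An E2F-type 8-mer was present in DCK, CDA and TYMS, the E2F core in RRM1, and CCAAT in RRM1, RRM2, TK1 and SAMHD1. For TK1 it was in 1 of 2 windows. The windows of the reductase genes lower with the mimic are shown for the contrast between them, with motifs in capitals: RRM1 (chr11:4094435-4094734, plus strand) and RRM2 (chr2:10122489-10122788, plus strand).
RRM1 promoter: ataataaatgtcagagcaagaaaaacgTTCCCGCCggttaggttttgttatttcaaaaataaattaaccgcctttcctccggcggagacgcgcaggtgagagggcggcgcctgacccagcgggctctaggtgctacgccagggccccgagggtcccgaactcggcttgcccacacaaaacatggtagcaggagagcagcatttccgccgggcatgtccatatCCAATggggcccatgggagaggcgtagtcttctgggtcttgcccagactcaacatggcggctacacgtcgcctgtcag
RRM2 promoter: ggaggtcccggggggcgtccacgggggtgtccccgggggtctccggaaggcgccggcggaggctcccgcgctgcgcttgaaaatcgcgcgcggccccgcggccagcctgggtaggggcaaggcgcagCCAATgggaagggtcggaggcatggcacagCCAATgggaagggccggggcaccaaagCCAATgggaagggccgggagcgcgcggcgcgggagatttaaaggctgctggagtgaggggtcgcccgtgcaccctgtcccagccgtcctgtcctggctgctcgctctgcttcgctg
RRM1 has the E2F core 223 bases and a CCAAT 28 bases before its start. RRM2 has CCAAT 3 times, 123, 93 and 66 bases before this start, which 3.26% of all windows match or exceed in number, and neither E2F pattern. A second annotated RRM2 start, upstream, has 1 CCAAT. TYMS has the reverse complement of TTTCCCGC 39 bases before its start. The 4 genes with CCAAT were all lower with the mimic in both lines, as were 27.6% of 10678 genes measured in both. RRM1, 1 of the 4, was known to be lower when the genes were chosen, and the share among all genes with CCAAT is not given here. Of the 5 searched genes without it, TYMS and SLC29A1 were lower in both lines, DCK and DCTD were not, and CDA was measured in PSN-1 alone, where it was higher. Of the 3 genes with an E2F-type 8-mer, TYMS was lower in both lines, and DCK and CDA were not. These counts over 9 genes are a description, and no link between motif and change was tested. The absence of a pattern says only that these letters are not in the window.

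Beyond the 10 genes, 88 genes of nucleotide metabolism and G1/S control in 7 lists were described. Of 79 measured in MIA PaCa-2, 50 were lower with the mimic (median -0.10), 3 of them past 1.5-fold, and 2 were higher past 1.5-fold. Over all genes measured there, 47.8% were lower (median 0.014), 4.06% lower past 1.5-fold and 5.43% higher past it. Of 80 measured in PSN-1, 48 were lower (median -0.06), 3 past 1.5-fold, and 1 was higher past 1.5-fold. Over all genes of PSN-1 these shares were 52.4% lower (median -0.016), 3.87% lower and 3.17% higher past 1.5-fold. The shares of all genes also stand beside the counts of the single lists below. Limma called 0 of the 77 fitted for the shared effect, where it called 0.00937% of all genes lower and 0.0562% higher. The thymidylate and folate list held the 2 genes past 1.5-fold in the same direction in the 2 lines. Over the 10678 genes measured in both lines, 0.609% were lower past 1.5-fold in both. The share higher in both is not given here. MTHFD1, the trifunctional enzyme that makes folate cofactors for purine and thymidylate synthesis, was at 32.7 FPKM under the mimic against 63.3 under the scramble in MIA PaCa-2 (-0.93), and PSN-1 had 20.5 against 38.0 (-0.86). SLC19A1, the reduced folate carrier, had 20.6 against 7.22 in MIA PaCa-2 (1.39), and 11.6 against 7.42 in PSN-1 (0.59). Both mimic libraries were thus lower for MTHFD1 and higher for SLC19A1 than both scramble libraries. The share of all genes with libraries in such an order is not given here. Both were named for passing 1.5-fold in both lines, so their shared log2 changes (-0.90 and 0.99) are a description with no test.

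The de novo pyrimidine genes were lower in 7 of 7 in MIA PaCa-2 (median -0.25) and in 6 of 7 in PSN-1 (median -0.23), none past 1.5-fold. CTPS1, the CTP synthetase gene, was the lowest in MIA PaCa-2 (9.29 and 14.2 FPKM, -0.57), DHODH, the mitochondrial dihydroorotate dehydrogenase gene, the lowest in PSN-1 (2.03 and 2.77 FPKM, -0.32), and PRPS2 the highest in both (-0.02 and 0.11). Purine synthesis and salvage genes were lower in 11 of 14 (median -0.08) and 7 of 14 (median -0.03), with PNP lowest in MIA PaCa-2 (-0.32), ADSS lowest in PSN-1 (-0.42), ATIC highest in MIA PaCa-2 (0.16) and PPAT highest in PSN-1 (0.29). The other nucleoside and nucleotide kinases were lower in 6 of 13 and 10 of 13, from -0.33 (DTYMK, thymidylate kinase) to 0.24 (NME6) in MIA PaCa-2 and from -0.47 (NME4) to 0.10 (DGUOK) in PSN-1.

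Among nucleotidases, deaminases and hydrolases, 6 of 12 were lower in MIA PaCa-2, while PSN-1 had 6 of 11 lower. NT5E, the cell surface 5'-nucleotidase CD73, was the highest in both lines. It had 184 FPKM under the mimic against 127 under the scramble in MIA PaCa-2 (0.53), and 48.0 against 32.7 in PSN-1 (0.54). NT5E was named for this rank, so no test of its shared change is given. ADA, adenosine deaminase, was the lowest in PSN-1 (6.83 and 11.6 FPKM, -0.69), and NUDT1, which hydrolyses oxidised nucleotides, the lowest in MIA PaCa-2 (-0.30). Other carriers and drug exporters were lower in 4 of 7 and 6 of 7 measured, with ABCC5, a nucleotide exporter, the lowest in MIA PaCa-2 at -0.44 and the highest in PSN-1 at 0.16. SLC29A4, a monoamine and nucleoside transporter, was the highest in MIA PaCa-2 (14.0 FPKM under the mimic against 9.79 under the scramble, 0.48). ABCG2, a drug exporter, was the lowest in PSN-1 and the only one of the list past 1.5-fold there (5.84 against 9.88 FPKM, -0.67).

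G1/S regulators and replication-stress kinases, the list nearest to S phase, were lower in 11 of 14 in MIA PaCa-2 with a median of -0.25, and 2 were lower and 1 higher past 1.5-fold. In PSN-1, 7 of 15 were lower with a median of 0.02. Besides E2F8, the lower gene past 1.5-fold in MIA PaCa-2 was CCNA2, the cyclin A2 gene of S and G2 phase, named after its values were seen (9.42 against 18.2 FPKM, -0.88, with -0.33 in PSN-1). E2F1, a transcription factor of S-phase genes, was at 11.3 and 15.2 FPKM in MIA PaCa-2 (-0.39) and at 15.9 and 21.8 in PSN-1 (-0.43). E2F8, a repressor of the same family, was at -0.95 and 0.37, on 0.871 to 2.94 FPKM, and WEE1, a kinase that restrains entry into mitosis, was at 82.4 and 42.6 FPKM in MIA PaCa-2 (0.94) and at 25.6 and 23.7 in PSN-1 (0.10). The part of the cell cycle in the lower reductase and thymidylate genes was not tested.

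**Figure D5:**
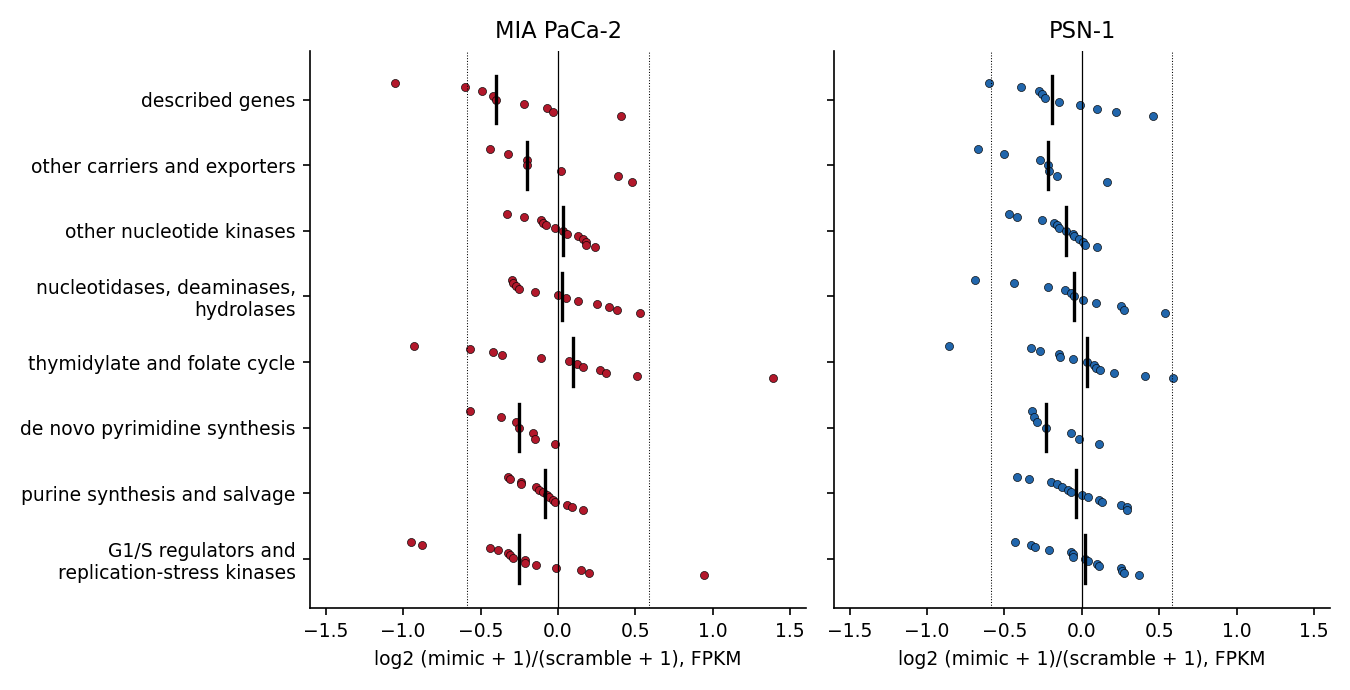
Log2 change with the mimic of the 10 described genes and the 7 pathway lists, 1 point per measured gene and a bar at each list's median, in MIA PaCa-2 (left) and PSN-1 (right), with dotted lines at 1.5-fold. The median of the described genes is at -0.40 (MIA PaCa-2) and -0.19 (PSN-1), and MTHFD1 (-0.93 and -0.86) and SLC19A1 (1.39 and 0.59) are the outermost points of the thymidylate and folate list.

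By the distance between pairs of changes, over 7932 genes of at least 5 FPKM in each line, the genes closest to RRM1 were TARS2 (-1.04 and -0.70), IPO8 (-0.98 and -0.68), FAM83D (-0.96 and -0.54), SAPCD2 (-0.96 and -0.66) and PLAA (-1.12 and -0.73). The likeness rests on 2 changes from 4 libraries. TARS2 and PLAA had a seed site in the longest 3' UTR, and IPO8, FAM83D and SAPCD2 had none. Such a site was present in 2.44% of 9803 genes measured in both lines with a 3' UTR record. As the 5 genes were picked for a fall like that of RRM1, nothing is read from this count.

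The libraries were of similar depth, with 1 FPKM worth an estimated 12.6 to 15.9 fragments per kilobase. Of 8 epithelial markers, 4 to 5 reached 1 FPKM in the MIA PaCa-2 libraries and 7 to 8 in those of PSN-1, with summed levels of 1493 to 1712 FPKM. The keratin genes KRT8 and KRT18 were at 495 to 923 FPKM in all 4, while EPCAM was at 0.104 and 0.139 in MIA PaCa-2 and 24.1 and 28.4 in PSN-1, and CDH1 did not exceed 1.51. KRT7 was at 0 in both MIA PaCa-2 libraries and at 287 (mimic) and 406 (scramble) in PSN-1. CD3E and EMCN were at 0 throughout. Summed leukocyte markers were at 21.8 to 44.3 FPKM, most of it CD68, and PTPRC did not exceed 0.433. Endothelial markers summed to at most 0.0273 FPKM in MIA PaCa-2 and to 7.16 and 7.99 in PSN-1, and fibroblast markers to 67.3 to 99.1. The fibroblast sums came from different genes in the 2 lines. COL1A2 was at 59.9 and 76.8 FPKM in MIA PaCa-2 and at most 0.0120 in PSN-1. PDGFRB was at most 0.0713 in MIA PaCa-2 and at 19.6 and 20.9 in PSN-1, and LUM was at 0 against 14.3 and 19.6. The change of a gene and the GC content of its 3' UTR had a Spearman correlation of -0.22 over 11048 genes in PSN-1, which are not independent, against -0.01 over 10313 in MIA PaCa-2. At the GC content of the 10 genes that trend in PSN-1 ran from -0.11 (TK1) to 0.06 (DCK).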

How the data were processed

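Polyadenylated RNA of 4 samples was sequenced after TruSeq stranded mRNA library preparation, per the labels' protocols. Each deposited file lists FPKM by gene symbol, per the file headers. TopHat2 2.1.1, Cuffdiff 2.2.1 and hg19 are named in the submitters' processing notes. The sources used here give no annotation, strand setting or scaling between libraries. Depth was estimated from the steps that single fragments leave among low FPKM values of genes with 1 transcript of 1000 bases or more, assuming fragments of 200 bases.

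Changes within a line compare log2 values after a pseudocount of 1 was added to each FPKM, and cover genes averaging 1 FPKM or more in that line. Both fits across lines used limma 3.58.1 in R 4.3.3 (eBayes with trend, two-sided, Benjamini-Hochberg adjustment over all genes fitted), which was tested on simulated data. The fit of the mimic effect held the line as a block, and the fit of the line difference held the oligonucleotide. Each left 1 residual degree of freedom per gene, and eBayes pooled the error over genes of similar level. Nothing says whether the libraries came from separate experiments, so p-values measure only the spread between these libraries.

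Symbols were joined to GENCODE release 29 (GRCh38) for 3' UTRs, with older symbols allowed (18503 matched). Promoter windows and the microRNA came from RefSeq (GRCh38.p14). The 10 genes and the 7 pathway and 4 marker lists were chosen with earlier results of these data known. Named pathway genes were those past 1.5-fold the same way in both lines at 5 FPKM or more, and the highest and lowest change of each list in each line. The genes most like RRM1 were the 5 nearest in the pair of changes, at 5 FPKM or more in each line. Alternatives were another pseudocount, filter, scaling and limma setting, a stricter fold, and removal of the trend on 3' UTR GC content (lowess, statsmodels 0.14.6). Scripts ran in Python 3.11.15 with matplotlib 3.10.9, scipy 1.17.1, pandas 2.3.3 and numpy 2.4.6.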

Additional observations from a re-analysis of the deposited data

Results flagged for a closer look

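For 3 genes the 2 lines lay on opposite sides of 0 with the mimic, and in none of them was the difference between the lines tested, since each line gives 1 pair of libraries. DCTD had log2 changes of 0.41 (MIA PaCa-2) and -0.01 (PSN-1), a difference of 0.42 (counting SE 0.082 and 0.072). Its change in PSN-1 was smaller than its counting error, and after correction for the GC content of 3' UTRs it was 0.04, on the same side of 0 as in MIA PaCa-2. RRM2B was at -0.07 and 0.22, a difference of -0.29 (counting SE 0.086 and 0.062), and the change in MIA PaCa-2 was smaller than its counting error. DCK was at -0.03 and 0.10, a difference of -0.13 (counting SE 0.14 and 0.11), and its change in MIA PaCa-2 was smaller than its counting error. Without pseudocount, as the counting SE is computed, its change in PSN-1 was 0.12, about the size of that SE.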

How the results depend on the processing

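Over 7 settings, RRM1 kept a log2 change of -1.12 to -1.05 (MIA PaCa-2) and -0.64 to -0.60 (PSN-1), and RRM2 of -0.66 to -0.60 and -0.41 to -0.39. With a threshold of 2-fold in place of 1.5-fold, 1 gene (RRM1) was lower in MIA PaCa-2, whereas PSN-1 had 0. In the 88 pathway genes the same threshold left 0 lower and 1 higher in MIA PaCa-2, and 0 lower and 0 higher in PSN-1. With the GC trend removed, PSN-1 gave -0.04 for TK1, -0.17 for SLC29A1, 0.04 for DCK and 0.04 for DCTD, which thereby changed side, so 6 of 10 genes were lower there. With a pseudocount of 0.1, CDA differed between the lines by 5.59, and with TPM scaling by 4.07. In the test of the shared effect, limma called 6 genes higher and 1 lower. It called 0 and 0 with no filter on low values, with 559 and 557 at an unadjusted p under 0.05. Without the line as a block it also called 0 and 0, with 28 and 26 at an unadjusted p under 0.05. The 5 FPKM filter gave 2 lower, no trend 0 lower, TPM scaling 13 higher and 10 lower, and leaving out short non-coding genes 6 lower. Leaving RRM1 aside, as it is given with no test, none of the fitted genes described here was called in any of these fits. Between the lines, SAMHD1, RRM2B, TYMS, TK1 and RRM2 passed the test in 8 limma fits, except RRM2 without the oligonucleotide term (adjusted p = 0.0506). CDA passed the filters on low values only through PSN-1, so its calls in the filtered fits are not read as a test. RRM1 reversed to -0.14 in the scramble libraries alone, from an estimate smaller than its SE. The cause of these shifts was not tested. Depth limits CDA in MIA PaCa-2, where 3 fragments stand for 0.309 FPKM. With 1 library per group, no spread between cultures was measured for any value.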

Other observations

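Outside the 10 genes, the lines differed widely in other carriers of nucleosides and drugs. SLC29A4, a plasma membrane monoamine and nucleoside transporter, was at 14.0 (mimic) and 9.79 FPKM (scramble) in MIA PaCa-2, and at 0.420 and 0.149 in PSN-1. PSN-1 minus MIA PaCa-2 was -3.32 on the log2(FPKM + 1) scale, which understates the ratio of such low values. ABCG2, an exporter of many drugs, was at 0 and 0.0579 FPKM in MIA PaCa-2 and at 5.84 and 9.88 in PSN-1 (3.07). Both genes reached 1 FPKM on average only through the line where they were high, so their differences are a description with no test. NT5E was higher in MIA PaCa-2 (-1.92, adjusted p = 2.18e-04 in limma). Of 82 pathway genes fitted, limma called 17 (20.7%) higher and 34 (41.5%) lower in PSN-1, beside 29.2% and 27.3% of all genes fitted. These counts hold genes that entered the fit only through the line where they were high, among them ABCG2, TYMP and SLC29A4. They are a description, and nothing is read from them beside the shares of all genes.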
